A study of Mus musculus with 13 samples.

Results

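In mouse embryonic stem cells (mESCs), 941 promoter regions carried peaks of H3K27me3, the histone mark deposited by Polycomb repressive complex PRC2, in both replicate peak lists and overlapped no peak in any of 3 lists for the PRC2 subunit AEBP2. They were 28.8% of the 3262 H3K27me3 regions at protein-coding promoters and were taken from 5801 H3K27me3 regions in all, of which 46.7% overlapped no AEBP2 peak. To find them, H3K27me3 peaks of either replicate that shared 1 bp or more were merged into a region. A region was taken when both replicates contributed to it, when it lay within 1 kb of the annotated start of a protein-coding gene and no AEBP2 peak overlapped it by even 1 bp. The positions of the H3K27me3 and AEBP2 peaks therefore chose the regions, and peak positions, lengths and scores are given below as a description without a test. Absence of AEBP2 here means that no peak was called, which is not the same as no binding, because the depth of the libraries is not stated.

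PRC2 methylates lysine 27 of histone H3 and keeps developmental genes silent in cells where their products are not needed. Its core consists of EZH2 or EZH1 with EED, SUZ12 and a histone-binding RBBP protein, and accessory subunits divide it into 2 kinds of complex, PRC2.1 with PCL proteins and PRC2.2 with AEBP2 and JARID2. In mESCs, PRC2 targets are mostly CpG islands, stretches of DNA at gene starts in which the CpG dinucleotide has not been depleted, and many of the genes concerned encode regulators of embryonic development.

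All 5 lists came from wild-type mESCs described in the labels as a male line, 129/1 XY, grown in serum medium with LIF on gelatine. Endogenous AEBP2 was precipitated with an antibody raised for the study (replicates 1 and 2), H3K27me3 with a commercial antibody (replicates 1 and 2), and AEBP2 carrying a Flag-2xStrepII tag (FS2-AEBP2, 1 sample without a replicate) with an antibody against the tag and by a different ChIP protocol. The labels give the target of the commercial antibody as H3K27 without a methylation state, and the study's methods place the tagged protein in another mESC line, E14, so the line of that sample is uncertain. Which H3K27me3 list is replicate 1 is also uncertain, since the names of the lists and the sample records seem to disagree, and the records were followed. The SUZ12 libraries, the inputs and the Aebp2 mutant cells were not analysed here.

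The lists held 2877 peaks for AEBP2 replicate 1, 6779 for AEBP2 replicate 2, 2884 for FS2-AEBP2, 14112 for H3K27me3 replicate 1 and 9275 for H3K27me3 replicate 2. Among the AEBP2 lists, the number of regions without AEBP2 rests most on the longest. It was 1674 without AEBP2 replicate 2, 984 without AEBP2 replicate 1 and 985 without FS2-AEBP2. Leaving out an H3K27me3 list also drops the need for both replicates, since any peak of the remaining one then sufficed. The number was then 1584 without H3K27me3 replicate 1 and 1285 without H3K27me3 replicate 2. None of the promoters of 10 pluripotency genes and none of 85 cytosolic ribosomal protein genes lay in an H3K27me3 region of both replicates. Over all protein-coding promoters 15.6% did, so 10 promoters are too few for a check of the cell type. Klf4 alone among the pluripotency genes had a peak in a single H3K27me3 list.

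The regions covered the promoters of 967 of 22367 protein-coding gene entries in the annotation (4.32%). These 967 entries hold 965 distinct gene names. H3K27me3 of both replicates was present at 3486 promoters (15.6%), so that 27.7% of H3K27me3 promoters lay in a region without AEBP2. A further region with AEBP2 was also within 1 kb of the start for 31 of the 967, and an AEBP2 peak lay within 1 kb of the start, outside the region, for 56. Below, promoters without AEBP2 are the 967 in such regions, these included. Of the regions, 898 lay within 1 kb of the start of 1 gene and 42 of the starts of 2. In 799 regions each replicate contributed a single peak.

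Sequences from the ends of the range of CpG content show how unlike these promoters are. The CpG ratio is the number of CpG dinucleotides over the number expected from the C and G content, and was taken in the 300 bases from 250 before to 50 after each start. The 250 bases before the start are printed 5′ to 3′ on the strand of the gene, from the mm9 genome, with every CpG in capitals, for 2 of the promoters with the highest ratio, for 1 with the lowest, and for 2 with the strongest H3K27me3 peaks. None of these stretches overlaps an annotated exon.
Rimklb, chr6:122436341-122436590, minus strand: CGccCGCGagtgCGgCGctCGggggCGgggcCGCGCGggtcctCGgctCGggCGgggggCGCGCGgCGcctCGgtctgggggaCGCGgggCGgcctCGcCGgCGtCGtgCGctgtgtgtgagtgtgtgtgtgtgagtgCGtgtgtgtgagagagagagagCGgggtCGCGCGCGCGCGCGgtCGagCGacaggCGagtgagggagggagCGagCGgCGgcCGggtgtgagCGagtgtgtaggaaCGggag
Dmxl2, chr9:54349568-54349817, minus strand: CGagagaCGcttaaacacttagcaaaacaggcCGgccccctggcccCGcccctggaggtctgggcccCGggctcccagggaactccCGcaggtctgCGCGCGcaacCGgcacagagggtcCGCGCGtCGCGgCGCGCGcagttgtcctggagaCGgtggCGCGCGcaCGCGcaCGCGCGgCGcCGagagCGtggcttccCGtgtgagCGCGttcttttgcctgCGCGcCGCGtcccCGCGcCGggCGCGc
4930407I10Rik, chr15:81889331-81889580, plus strand: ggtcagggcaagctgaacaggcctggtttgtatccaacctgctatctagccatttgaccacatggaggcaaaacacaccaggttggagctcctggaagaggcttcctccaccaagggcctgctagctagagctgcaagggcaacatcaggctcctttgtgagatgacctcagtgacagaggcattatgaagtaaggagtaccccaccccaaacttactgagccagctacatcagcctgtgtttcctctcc
Slc5a5, chr8:73416657-73416906, minus strand: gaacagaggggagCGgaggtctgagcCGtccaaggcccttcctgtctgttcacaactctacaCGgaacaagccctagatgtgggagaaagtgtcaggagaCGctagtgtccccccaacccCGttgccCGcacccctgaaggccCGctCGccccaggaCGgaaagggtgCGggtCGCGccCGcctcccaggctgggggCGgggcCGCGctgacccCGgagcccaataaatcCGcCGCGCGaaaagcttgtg
Gm4392, chr3:127201920-127202169, minus strand: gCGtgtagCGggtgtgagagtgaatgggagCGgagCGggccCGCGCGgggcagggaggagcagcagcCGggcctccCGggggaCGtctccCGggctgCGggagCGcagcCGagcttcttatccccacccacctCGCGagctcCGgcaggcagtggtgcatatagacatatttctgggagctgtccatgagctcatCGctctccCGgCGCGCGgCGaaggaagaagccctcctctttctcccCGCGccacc

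Rimklb, which encodes a ligase that joins glutamate to N-acetylaspartate, held 44 CpG in this stretch, and Dmxl2, which encodes a protein of synaptic vesicles, held 42. The uncharacterised 4930407I10Rik held 0. The H3K27me3 regions of all 3 genes lay beside the start and not over it. Their score percentiles in replicate 1 were 37.2 for Rimklb, 37.2 for Dmxl2 and 91.1 for 4930407I10Rik, whereas in replicate 2 they were close to each other, at 64.2, 59.8 and 64.2. These 3 promoters are examples. Il24 and Prm1 also had a CpG ratio of 0, but their regions covered the start. Their percentiles were 83.5 and 51.7 in replicate 1, and 71.6 and 38.4 in replicate 2.

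The first question was how H3K27me3 at these promoters compared with H3K27me3 at promoters where AEBP2 was found. Regions without AEBP2 were the shortest class, with a median of 3715 bp (95% interval of the median 3570 to 3846 bp, n = 941 regions) and a middle range from 2540 to 5324 bp. The median length was 5167 bp where 1 AEBP2 list had a peak, 6347 bp with 2 lists and 9926 bp with all 3. The shortest region without AEBP2 spanned 226 bp and the longest 32666 bp. A longer region offers more bases in which a peak can lie, so length and AEBP2 overlap are not separate measures. The median length was 1982 bp when H3K27me3 replicate 1 was left out.

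Peak scores followed the same order. The deposited score is a whole number of unstated scale, so it was ranked within its own list as a percentile, the percent of peaks in that list with a lower score. Each region took the highest score among its peaks in a list. A longer region can hold more peaks, so score and length are not separate measures, and the part of length was not tested. The median region without AEBP2 had a score of 7 in H3K27me3 replicate 1 (percentile 60.8) and 8 in replicate 2 (percentile 54.1). With AEBP2 in all 3 lists the medians were 22 (percentile 93.7) and 20 (percentile 89.6). Scores in the top 25% of the list were held by 28.4% of regions without AEBP2 in replicate 1 and by 13.8% in replicate 2, against 74.7% and 59.0% of regions with AEBP2. In 68 regions without AEBP2 (7.23%) both replicates were in the top 25%. The ranks of the replicates followed each other less closely in regions without AEBP2 (Spearman's rho 0.293 across 941 regions) than in those with AEBP2 (0.562), a description across regions of the same libraries and over a narrower range of scores.

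**Figure D1:**
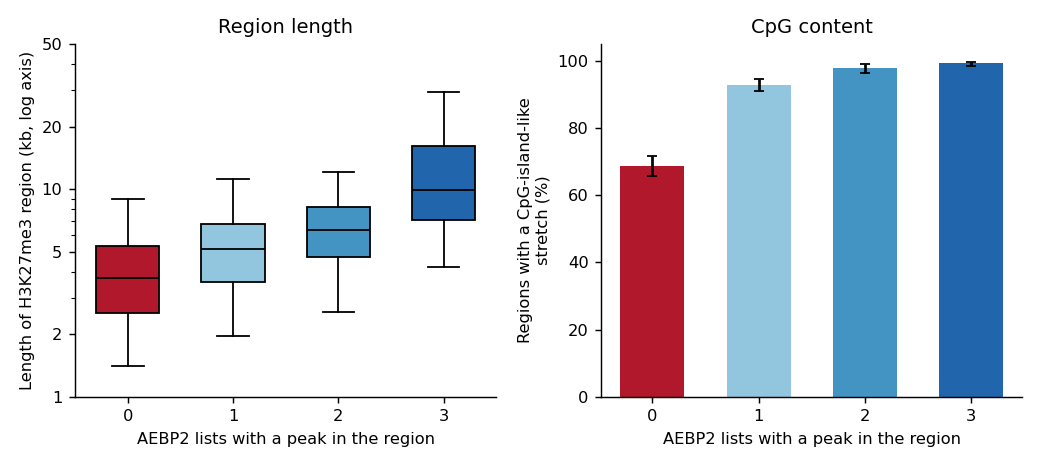
H3K27me3 promoter regions by the number of AEBP2 lists with a peak (0 to 3, horizontal axes). Left, region length in kb on a log axis, with the median (line), the middle range (box) and the 5th to 95th percentiles (whiskers), where the median is 3715 bp with no list and 9926 bp with 3 lists. Right, percent of regions with a CpG-island-like stretch and its 95% Wilson interval, from 68.8% with no list to 99.2% with 3.

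The class next in order was set mainly by a single list. Of the 820 regions with AEBP2 in 1 list, 733 (89.4%) had a peak of AEBP2 replicate 2 only, 43 of AEBP2 replicate 1 only and 44 of FS2-AEBP2 only. The boundary between no list and 1 list thus lies where the replicate with the most AEBP2 peaks placed it.

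The second question was whether the sequence of these regions differed, which the choice of regions did not use. Fewer of them were CpG-island-like, defined as holding joined 500 bp windows in which GC made up 55% or more and the CpG ratio reached 0.65. Such sequence was found in 647 of 941 regions without AEBP2 (68.8%, 95% Wilson interval 65.7 to 71.6%) and in 2245 of 2321 regions with AEBP2 in at least 1 list (96.7%), a difference of -28.0 percentage points (95% Newcombe interval -31.1 to -25.0). The share was 92.9% with 1 list, 98.0% with 2 and 99.2% with 3, so the largest step lay between no list and 1 list. In a fixed window within 1 kb of the start, a measure unlike these region shares, 12312 of 22367 protein-coding promoters (55%) held CpG-island-like sequence. In that window the shares were 69.0% of promoters without AEBP2 and 90.6% of those with AEBP2. These intervals cover the counting of regions and not the spread between replicates, and neighbouring regions are not independent.

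The difference was also present within groups of region length. When all H3K27me3 promoter regions were divided into 4 groups of equal size by length, 69.9% of regions without AEBP2 and 93.3% of those with AEBP2 in the shortest group were CpG-island-like, a difference of -23.3 points. In the longest group the shares were 60.4% and 98.6%, a difference of -38.2 points (95% Newcombe interval -52.3 to -25.5). Regions without AEBP2 made up 59.9% of the shortest group and 5.88% of the longest, so the latter comparison rests on few of them. The shortest group ran from 226 to 3774 bp and the longest from 8862 to 162445 bp. Lengths therefore still varied within a group, and the part that length plays was not tested.

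**Figure D2:**
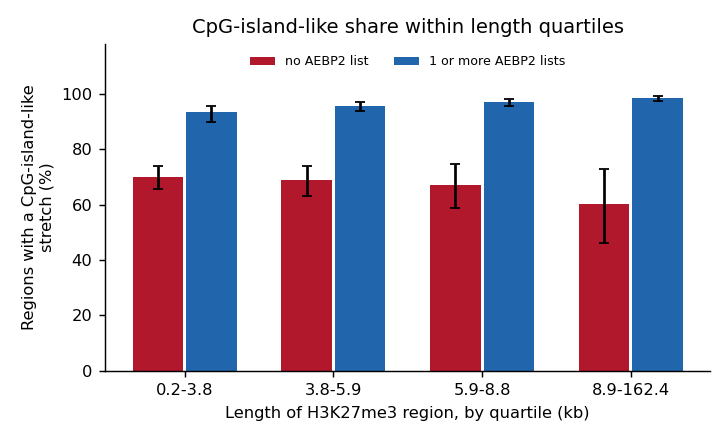
Percent of H3K27me3 promoter regions with a CpG-island-like stretch (bars from 0, with 95% Wilson intervals) in 4 equal groups of region length (horizontal axis, the range of each in kb), for regions without AEBP2 (red) and with AEBP2 in at least 1 list (blue). The share without AEBP2 lies between 60.4% and 69.9% in every group, and the share with AEBP2 between 93.3% and 98.6%.

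At the promoters themselves the same order was seen. The median CpG ratio in the 300 bases around the start was 0.584 (95% interval 0.562 to 0.612) without AEBP2 and 0.699 (0.683 to 0.709) with AEBP2, and 0.534 over all protein-coding promoters. The median GC content was 60.7%, 63.3% and 55%, respectively. The letters CGCG, searched in the same 300 bases and identical on both strands, occurred in 58.1% of promoters without AEBP2, 71.7% with AEBP2 and 46.7% of all promoters, a difference of -13.5 points between the first pair (95% Newcombe interval -17.1 to -9.98). GGGCGG, the core of the GC box and counted on either strand, occurred in 60.4% and 62.6%, with a difference whose interval runs from -5.81 to 1.41 points, against 43.4% of all promoters. CCAAT on either strand was present in 30.6% and 31.6% (interval of the difference -4.36 to 2.48 points), against 37.9% of all promoters. The intervals for GGGCGG and CCAAT include 0, and that for CGCG does not. A match is a stretch of letters and not a binding site.

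Regions without AEBP2 differed from one another in this respect. The 647 with CpG-island-like sequence and the 294 without it had similar median lengths, 3647 and 3810 bp, and the same median percentile in H3K27me3 replicate 1, 60.8. In replicate 2 the medians were 59.8 and 38.4. Away from promoters, only 408 of 1770 H3K27me3 regions without AEBP2 were CpG-island-like (23.1%), which is 45.7 points below the promoter regions (95% Newcombe interval 42.1 to 49.2), although the median length of those distal regions was 3634 bp. Promoters were chosen by position and carry CpG islands more often than the rest of the genome, and that part of the difference was not tested.

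The third question was where the mark lay relative to the gene. At promoters without AEBP2 the H3K27me3 region often stood beside the start site. The start itself lay inside the region for 646 of 967 promoters (66.8%), against 81.5% with 1 AEBP2 list, 87.1% with 2 and 93.3% with 3, where a promoter touching regions of several classes counts in each. Length moved with this order, and its part was not tested. In the shortest of the same 4 length groups, 48.3% of regions without AEBP2 and 48.9% of those with AEBP2 contained a start site. In the other groups, from shorter to longer, the shares were 84.8% and 89.4%, 91.4% and 95.9%, and 85.4% and 99.0%, each lower without AEBP2.

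For the 321 promoters whose start was not covered, the region lay downstream, in the direction of transcription, in 186 (57.9%), upstream in 122 (38.0%), and on both sides in 13 (4.05%). CpG-island-like sequence was present within 1 kb of the start in 80.4% of them and in 63.3% of the promoters with a covered start, a difference of 17.1 points (95% Newcombe interval 11.1 to 22.5). Rimklb, Dmxl2 and Mak, the promoters with the highest CpG ratios, all belonged to the uncovered kind.

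Per replicate, the start was under a peak at 62.2% of promoters without AEBP2 in H3K27me3 replicate 1 and at 49.3% in replicate 2, against 91.0% and 87.4% with AEBP2 in all 3 lists. Coverage reached 75.7% at 750 bp after the start in replicate 1 and 76.6% at 1000 bp after it in replicate 2. In replicate 2 a lower maximum of 57.4% lay 750 bp before the start, so the start sat in a dip between 2 maxima, and a dip was also present in that replicate where AEBP2 had been found. By 5000 bp after the start coverage had fallen to 12.3% and 4.55% of promoters in the replicates, where promoters with 3 AEBP2 lists still had 58.9% and 48.2%. Every promoter was chosen to have a region within 1 kb, which limits what the profile near the start can show.

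**Figure D3:**
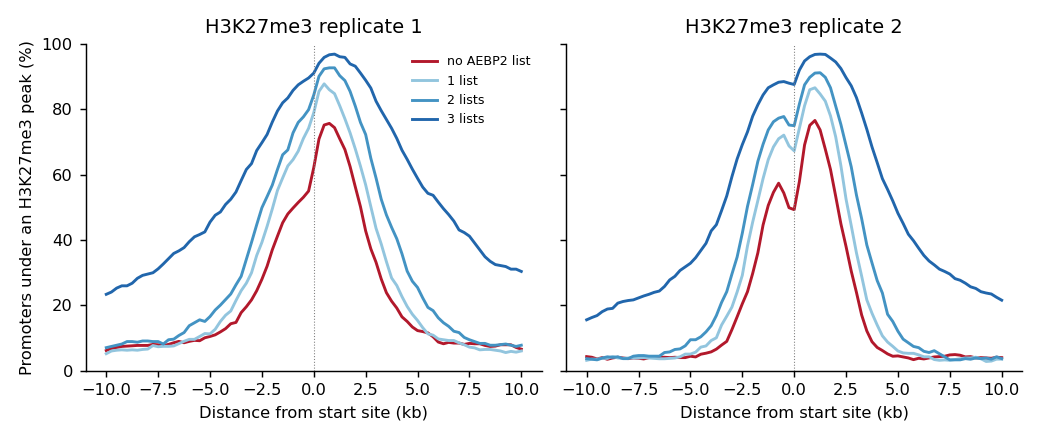
Percent of promoters under an H3K27me3 peak (vertical axis) by distance from the start site in the direction of transcription (horizontal axis, kb), with a panel for each H3K27me3 replicate and a line for promoters with AEBP2 in 0, 1, 2 or 3 lists. The line without AEBP2 (red) is lower at the start (62.2% and 49.3%) than at its maximum downstream (75.7% and 76.6%), and in replicate 2 every line dips at the start.

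Distances to AEBP2 peaks varied widely, and the rule itself left out every region that overlapped one. The distance to the nearest peak had a median of 75193 bp, with a middle range from 20942 to 192971 bp, and exceeded 100 kb for 395 regions (42.0%). For distal H3K27me3 regions without AEBP2 the median was 52558 bp. No distance for positions drawn at random was computed, so whether these distances are large was not tested. The median distance was 78788 bp to AEBP2 replicate 2, the list with the most AEBP2 peaks, 234139 bp to AEBP2 replicate 1 and 311298 bp to FS2-AEBP2. Within 1 kb there were 54 regions (5.74%) and within 10 kb 148 (15.7%). The farthest was the region of Rgs2, a regulator of G protein signalling, at chr1:145848198-145853805 and 4528999 bp from an AEBP2 peak.

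A few regions stood at the edge of the rule. The region of Smad3, a transducer of TGF-beta signals, ended 2 bp from a peak of AEBP2 replicate 1, that of Abhd8 7 bp and that of the collagen gene Col23a1 8 bp from peaks of AEBP2 replicate 2. Just outside the rule, 9 bp of the region of Gm10428, 22 bp of that of Cyp2r1, a vitamin D hydroxylase gene, and 23 bp of that of Cachd1 lay under an AEBP2 peak of 1 list each. Up to 100 bp on either side of the boundary there were 7 regions without and 15 with AEBP2. The share of H3K27me3 promoter regions without AEBP2 ran from 23.4% on chromosome 19 to 37.3% on chromosome 13 (95% Wilson interval 29.6 to 45.7%, the highest of 20 chromosomes), and was 27.6% on the X.

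The fourth question was which genes these are. The share of H3K27me3 promoters without AEBP2, 27.7% over all genes, differed widely between gene lists. It was lowest for homeobox transcription factors, which pattern the embryo: 174 of 184 promoters carried H3K27me3 and 2 of them lay in regions without AEBP2 (1.15%, 95% Wilson interval 0.316 to 4.09%), whereas 155 had AEBP2 in all 3 lists. Other developmental transcription factors followed with 8 of 152 (5.26%, 2.69 to 10.0%). Among lists with at least 10 H3K27me3 promoters the share was highest for immune genes, 33 of 72 (45.8%, 34.8 to 57.3%), and germ cell genes, 8 of 15 (53.3%, 30.1 to 75.2%). With AEBP2 replicate 2 left out, the shares were 6.90%, 13.8%, 66.7% and 73.3% for these lists and 49.4% for all genes.

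**Figure D4:**
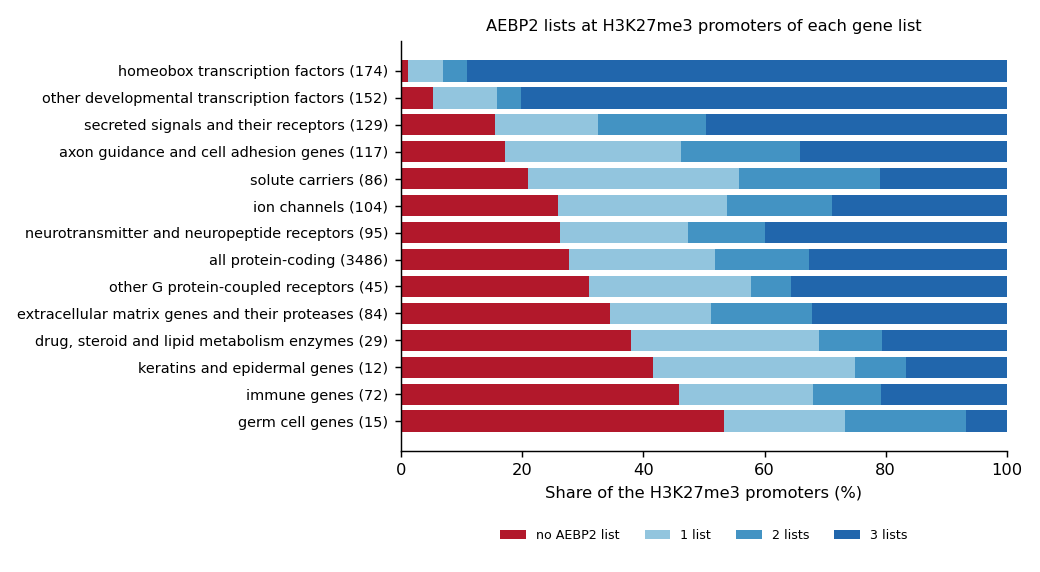
Share of the H3K27me3 promoters of each gene list (horizontal axis, percent) that had AEBP2 in no list (red) or in 1, 2 or 3 lists (blue shades), with the number of H3K27me3 promoters in parentheses, for lists with at least 10. The red share runs from 1.15% for homeobox transcription factors to 53.3% for germ cell genes, and is 27.7% for all protein-coding genes.

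Region length differed between the lists as well. The median region length at H3K27me3 promoters was 23454 bp for homeobox genes and 13906 bp for other developmental transcription factors, against 5268 bp for immune and 3412 bp for germ cell genes. Among promoters in regions of up to 6063 bp, which are the shorter of 2 equal groups, 45.7% of all genes and 8 of 21 of the other developmental transcription factors (38.1%, 20.8 to 59.1%) were without AEBP2, as was 1 of 14 homeobox genes (7.14%, 1.27 to 31.5%). Of immune genes in these shorter regions, 23 of 43 were without AEBP2 (53.5%, 38.9 to 67.5%), an interval that includes the share of all genes. In longer regions the genes without AEBP2 were 9.75% of all genes, 0 of 131 of the other developmental factors and 1 of 160 homeobox genes. Of immune genes there, 10 of 29 were without AEBP2 (34.5%, 19.9 to 52.7%). The part that length plays in each list was not tested.

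On the lists of homeobox and other developmental transcription factors, the genes without AEBP2 were few enough to give in full, chosen here for their small number. Transcription factor genes outside these lists, such as Npas4, are not included. The homeobox genes were Dbx2, of the spinal cord, with H3K27me3 scores of 19 and 12, and Meis3, a cofactor of Hox proteins, with scores of 6 and 5. The others were Egr1, Snai2, Rora, Nr4a2, Nr2f6, Klf11, Ikzf4 and Dmrtc2. Egr1, an immediate early gene, had an uneven pair of scores, 7 in replicate 1 and 24 in replicate 2 (percentiles 60.8 and 94.3). Snai2, a driver of epithelial to mesenchymal transition, had 9 and 13, and Rora, a nuclear receptor, 9 and 10. In 7 of these 8 other factors the start site lay outside the region, the exception being Dmrtc2, and in all 8 the region was CpG-island-like. Over all promoters without AEBP2 the start lay inside for 66.8%, and 68.8% of all such regions were CpG-island-like. The 8 regions were short, from 1620 to 4204 bp, and the shortest regions often missed the start with or without AEBP2. The part of length was not tested.

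Of the secreted signals and their receptors, 20 of 129 H3K27me3 promoters were without AEBP2 (15.5%, 10.3 to 22.7%). Fgf18, a growth factor of bone and lung, ranked highest with scores of 22 and 17, in a region at chr11:33043826-33047805 that was 14547 bp from AEBP2. Areg, which encodes the EGF receptor ligand amphiregulin, had 14 and 15, and Fgfr1, an FGF receptor, 9 and 16. Areg stood beside 2 further ligand genes of the same receptor, Ereg (5 and 7) and Btc (8 and 7), each in a region of its own and with no other gene in between. This run was noticed after the values were seen.

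Axon guidance and cell adhesion genes gave 20 of 117 (17.1%, 11.3 to 24.9%), among them clustered protocadherins of the Pcdhb family on chromosome 18. The share of that family without AEBP2 is not given here. Pcdhb3 had scores of 31 and 12 and Pcdhb10 of 23 and 7, while Pcdhb17 had 6 and 5. These single-exon cell adhesion genes are close copies of one another, so peaks there depend on how reads that map to several places were treated, which is not given in the sources used here. Lrrtm3, a synaptic adhesion gene, had 19 and 12. Without AEBP2 replicate 2 the share of this list was 45.3%.

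Ion channels and the receptors of neurotransmitters and neuropeptides lay near the overall share. Ion channels gave 27 of 104 (26.0%, 18.5 to 35.1%) and neurotransmitter and neuropeptide receptors 25 of 95 (26.3%, 18.5 to 36.0%). The sodium channel subunit gene Scnn1g had scores of 15 and 17, and the potassium channel subunit gene Kcns2 21 and 13 at a distance of 1095 bp from an AEBP2 peak. The serotonin receptor gene Htr1f had 12 and 20. Npy5r, a receptor of neuropeptide Y, had 14 in each replicate and lay next to Npy1r, for which the replicates differed (4 and 17). The nearest AEBP2 peak was 1729224 bp from the region of Npy5r and 1720543 bp from that of Npy1r.

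Other G protein-coupled receptors gave 14 of 45 (31.1%, 19.5 to 45.7%), led by Gpr158 with 27 and 12, and solute carriers 18 of 86 (20.9%, 13.7 to 30.7%). Slc5a5, the iodide transporter of the thyroid, had one of the highest pairs of scores among regions without AEBP2, 27 and 26 (percentiles 96.5 and 95.7). Its region spanned 1605 bp at chr8:73415114-73416718. That region lay 4412 bp from an AEBP2 peak, and the sequence before the start, printed above, held 21 CpG. Slc9a9, a sodium-proton exchanger of endosomes, lay in the longest region, 32666 bp at chr9:94551370-94584035, with scores of 13 and 18, no CpG-island-like sequence and the nearest AEBP2 peak 720351 bp away.

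Extracellular matrix genes and their proteases gave 29 of 84 (34.5%, 25.2 to 45.2%), among them Mmp24, a membrane-bound metalloprotease (16 and 23), Thbs1, which encodes thrombospondin (14 and 20), and Adamts9, a protease of the matrix (13 and 14). Col4a3 and Col4a4, chains of basement membrane collagen that are transcribed in opposite directions from a shared promoter, were held by a single region with scores of 12 and 12. The share was 54.3% in the shorter and 10.5% in the longer regions.

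Among the 33 immune genes were chemokines (Cx3cl1, Cxcl1, Cxcl5, Cxcl10, Cxcl16), receptors of interleukins and of the TNF family, and pattern recognition receptors (Tlr5, Cd14). Cx3cl1, which encodes fractalkine, had scores of 21 and 13 in a region of 7081 bp, and Cd82, a tetraspanin gene, 16 and 14. Ifnz, an interferon gene, combined high scores (17 and 26) with one of the shortest regions, at chr4:88427353-88427624. It belongs to a cluster of similar genes, and its value is uncertain for the same reason as that of the protocadherins.

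Of the germ cell genes, Smc1b, a meiotic cohesin subunit gene (12 and 7), Spata2L (7 and 12), Mov10l1, a helicase gene of the piRNA pathway (5 and 8), and Prm1, which encodes a protamine of sperm chromatin (6 and 6), were without AEBP2. The small number of H3K27me3 promoters on this list, 15, leaves its interval wide. Enzymes of drug, steroid and lipid metabolism gave 11 of 29 (37.9%, 22.7 to 56%). They included Cyp46a1, the cholesterol hydroxylase of neurons (20 and 23), Ces1h, a carboxylesterase gene (18 and 22), and Cyp1a1, which metabolises aromatic hydrocarbons (6 and 13). Keratins and epidermal genes gave 5 of 12 (41.7%, 19.3 to 68.0%). At Krt82 (11 and 4) and Krt77 (10 and 3) the peak of replicate 2 was small, 2646 of 17693 bp and 603 of 6402 bp, where replicate 1 covered the whole region. Of 1460 olfactory, vomeronasal and taste receptor genes, 3 carried H3K27me3 and 2 of those were without AEBP2.

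Outside these lists were 745 of the 967 promoters, a share of 31.4% of their 2369 H3K27me3 promoters (29.6 to 33.3%). The highest mean score percentiles over both replicates were held, beside Slc5a5 and Cyp46a1, by Gm4392 (26 and 23), by Rtbdn, a retinal riboflavin-binding protein gene (22 and 25), and by Npas4, an activity-dependent transcription factor gene of neurons (37 and 19). The region of Gm4392 was 123701 bp from AEBP2 and its upstream sequence, printed above, held 25 CpG. The longest regions after that of Slc9a9 were those of Kncn (19722 bp), Pik3r5, a subunit of phosphoinositide 3-kinase (19283 bp), and Gm10146 (18405 bp). The regions of Pik3r5 and Gm10146 held no CpG-island-like sequence.

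Some neighbouring genes were both without AEBP2, as seen after the values were known. Consecutive protein-coding genes without AEBP2 formed 98 runs with 205 genes, where 4.32% of all protein-coding promoters were without AEBP2. Of these runs 60 extended over at least 2 regions, and the longest held 4 genes. Genes at a single region share the call by construction. This includes Fgfr1 and Ptprd, each of which formed a run from paired annotation entries of the same name. No matching count for promoters with AEBP2 is given, and whether runs were more frequent here was not tested. Besides the EGF receptor ligands and neuropeptide Y receptors, Hba-x and Hba-a1, globin genes of embryonic and adult red cells, lay at a single region of 8530 bp with scores of 10 and 14. It held no CpG-island-like sequence. The imprinted genes Ndn (4 and 6) and Peg12 (7 and 4) on chromosome 7 did not form a run with each other. Both were without AEBP2, with AEBP2 peaks 25570 and 501 bp away.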

How the data were processed

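ChIP-seq peaks of 5 wild-type mESC samples were used. For every sample the authors deposited a peak list that gives the position of each peak and a whole-number score of unstated scale. The submitters' processing notes name Bowtie, SAMtools, Picard, MACS2 (2.0.10.2) and build mm9. Thresholds, control libraries and duplicate handling are not given in the sources used here. The names of 4 lists hold figures that may be read numbers, but their meaning is not stated, so depth was treated as unknown. Other per-sample columns numbered 0.

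Only the autosomes (1 to 19) and the sex chromosomes were kept, and 2 peaks of AEBP2 replicate 1 and 13 of H3K27me3 replicate 2 lay elsewhere. Gene starts came from GENCODE vM1 and sequences from the mm9 genome. Regions were joined and counted with Python 3.11.15, numpy 2.4.6, pandas 2.3.3 and pysam 0.24.0. CpG-island-like windows of 500 bp were taken every 10 bp. Shares have 95% Wilson and their differences 95% Newcombe intervals, which cover counting error only. The scripts were tested on simulated lists. No p-value was computed.

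Named genes were those with the highest mean score percentile, the longest regions, the nearest and farthest AEBP2 peaks, the highest and lowest promoter CpG ratio, and the top 3 of each list. Some genes that this rule names are not reported here. Other genes were chosen after their values were seen. The regions and gene lists were chosen with earlier results of these data known.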

Additional observations from a re-analysis of the deposited data

How the results depend on the processing

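The difference in CpG-island-like share between regions without and with AEBP2 kept its direction, with an interval below 0, in all 14 alternatives before pairing by replicate, from -47.0 points (without H3K27me3 replicate 2) to -9.84 points (windows of 200 bp). The other values moved with how AEBP2 and H3K27me3 were called. If AEBP2 peaks were required over 50% or more of a region, 2811 regions (86.2%) counted as without AEBP2, with a median length of 5666 bp and 87.1% CpG-island-like. With H3K27me3 peaks at or above the median score these values were 456, 18.5%, 4311 bp and 76.3%, and with AEBP2 peaks at or above the median score 1622, 49.7%, 4267 bp and 78.9%. The share without AEBP2 was 27.2% when no AEBP2 peak was allowed within 1 kb and 27.1% with promoters of 500 bp. The median length was 4092 bp when H3K27me3 peaks within 1 kb were joined. The CpG-island-like share was 65.3% with promoters of 2.5 kb and 89.9% with windows of 200 bp. Leaving out each list in turn gave 984 to 1674 regions, 30.2 to 51.3%, median lengths of 1982 to 4248 bp and 49.1 to 79.7% CpG-island-like. Homeobox genes, other developmental transcription factors, secreted signals, and axon guidance and cell adhesion genes stayed below the share of all genes in 13 of 13 alternatives, and immune genes and metabolic enzymes stayed above it in 13 of 13. Ion channels, below it at first, were above it in 4. Over these alternatives the share ran from 0.588 to 29.3% for homeobox genes, from 4.23 to 56.6% for other developmental transcription factors, from 32.6 to 93.1% for immune genes and from 17.5 to 84.5% for all genes, each highest under that 50% requirement. Pairing the lists by replicate number, chosen after seeing the data, used H3K27me3 and endogenous AEBP2 of the same number only. This gave 2312 regions (63.6%, median 3408 bp) for replicate 1 and 1699 (42.3%, median 2040 bp, 65.4% CpG-island-like) for replicate 2, with differences in CpG-island-like share of -30.4 and -31.3 points. The shares of homeobox genes were 10.8% and 2.92%, against 61.9% and 41.5% of all genes. Whether the numbers pair the samples is uncertain for H3K27me3, and no test across replicates was made. The unknown depth limits what the absence of a peak can show.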
